A study of Mus musculus with 4 samples.

Results

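The genes described here set the supply of phosphate and pyrophosphate at mineralizing matrix. They were listed by name as Alpl, Enpp1, Ank, Phospho1, Smpd3, Phex, Slc20a1 and Slc20a2, and every probe set whose only annotated gene symbol was one of these was taken. This gave 11 probe sets of 6 genes, out of 45037 probe sets and 17097 genes tested. No probe set carried Alpl or Enpp1 as its only symbol in the annotation used, and these 2 of the 8 genes were not analysed here. The study measured gene expression on 4 arrays of ATDC5, a chondrogenic line of mouse cells that can lay down cartilage-like matrix and go on to mineralize it. The 2 Chadl knockdown cultures were transfected with a duplex against Chadl, which encodes the leucine-rich matrix protein chondroadherin-like, and the 2 control cultures with a universal scrambled duplex. Both groups received 30 nM of a 27-mer duplex, which the labels call shRNA, with Lipofectamine 2000. After 16 h both were moved to differentiation medium, and RNA was taken at day 5. The knockdown was transient and in an unselected culture, and rests on the only duplex that the labels report as effective. The arrays are called biological replicates without a word on separate cultures, and p-values here reflect only the spread among the 4, part of which may be technical.

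Hydroxyapatite, the mineral of bone and calcified cartilage, forms where phosphate is plentiful and pyrophosphate is scarce, because pyrophosphate coats growing crystals and stops them. Pyrophosphate reaches the matrix through the ectoenzyme Enpp1, which makes it from ATP, and through Ank, a membrane protein needed for its export. Tissue-nonspecific alkaline phosphatase, encoded by Alpl, breaks pyrophosphate down to phosphate. Inside matrix vesicles, the small membrane sacs in which the first crystals form, the phosphatase Phospho1 frees phosphate from phosphocholine and phosphoethanolamine. Smpd3, neutral sphingomyelinase 2, splits sphingomyelin into ceramide and phosphocholine. The sodium-phosphate cotransporters Pit1 (Slc20a1) and Pit2 (Slc20a2) carry phosphate into cells, and Phex, a membrane endopeptidase of osteoblasts and osteocytes, restrains the phosphate-lowering hormone Fgf23 and cleaves peptides that block mineral.

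The duplex that defines the knockdown is shown first, then 3 of the members' promoters, chosen as those of the gene read higher in both knockdown arrays (Slc20a1), of one read lower in both (Phospho1) and of one that parted between them (Phex). The duplex sequence is as the labels give it. Its 25 letters are fewer than the 27 of the labels' name for it, and which strand was loaded is not stated.

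Chadl duplex: acaagguagagaaacaaagagacca

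The promoters are RefSeq windows of GRCm38.p6, from 250 bases before to 50 after an annotated start, read along the gene's strand. Windows were given for 6 of the 8 genes, and those of Smpd3 and Slc20a2 were not used here. Slc20a1 had 2 annotated starts, of which the upstream one is shown. Capitals mark motif matches on either strand. The RUNX core was searched as TGTGGT, the binding site called the GC box was searched as GGGCGG, and the TATA box was searched as TATAAA.

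Slc20a1, chr2:129198523-129198822, plus strand: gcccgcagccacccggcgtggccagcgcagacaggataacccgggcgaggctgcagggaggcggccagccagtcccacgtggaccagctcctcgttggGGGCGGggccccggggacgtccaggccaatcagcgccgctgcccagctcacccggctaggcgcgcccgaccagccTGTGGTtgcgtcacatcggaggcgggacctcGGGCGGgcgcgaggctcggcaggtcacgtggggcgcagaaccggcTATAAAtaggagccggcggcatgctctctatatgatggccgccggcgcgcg

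Phospho1, chr11:95824250-95824549, plus strand: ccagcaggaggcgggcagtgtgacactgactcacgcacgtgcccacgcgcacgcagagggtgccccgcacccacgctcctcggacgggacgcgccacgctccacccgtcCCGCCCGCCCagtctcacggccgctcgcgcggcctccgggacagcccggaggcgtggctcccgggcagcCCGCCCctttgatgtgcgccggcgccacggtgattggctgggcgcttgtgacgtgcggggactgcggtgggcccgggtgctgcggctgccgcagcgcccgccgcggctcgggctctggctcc

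Phex, chrX:157415237-157415536, minus strand: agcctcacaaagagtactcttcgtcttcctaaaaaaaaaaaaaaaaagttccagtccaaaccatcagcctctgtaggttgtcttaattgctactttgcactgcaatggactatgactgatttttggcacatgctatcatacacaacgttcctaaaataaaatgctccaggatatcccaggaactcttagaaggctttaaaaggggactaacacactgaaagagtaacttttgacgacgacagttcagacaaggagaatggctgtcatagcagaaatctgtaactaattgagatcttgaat

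The 3 windows differ in base composition. The Slc20a1 window is 73.00% and the Phospho1 window 77.00% G and C, with 36 and 42 CpG dinucleotides, while the Phex window is 38.67% with 4, against a median of 52.67% over 32851 promoter windows. The contrast depends on the windows chosen. That of Ank, which also parted between the knockdown arrays, is 78.00% with 53, and that of the downstream Slc20a1 start, not shown, 52.00% with 6. The Slc20a1 window shown holds 1 RUNX core at bases 174 to 179 (16.76% of all windows hold at least 1) and 2 GC boxes (35.66%). It also holds the TATA box letters (13.62%) at bases 250 to 255, which lie across the annotated start and not upstream of it. The Phospho1 window holds 3 GC boxes, the first 2 of which overlap, and neither of the other 2 motifs. The Phex window holds none of these 3 motifs. The E-box letters CANNTG, present in 72.31% of windows, occur in all 3 and are not capitalised. A match is a run of letters and no evidence that a factor bound there.

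Values below are log2 signals per probe set as deposited, after RMA, a procedure that evens out the arrays and summarises the probes of a set. Probe sets differ in brightness for reasons other than transcript amount, so levels are compared between arrays and not between genes. The duplex's own target lay below both controls in each knockdown array. Chadl read 4.29 and 4.64 in knockdown 1 and knockdown 2, against 4.91 and 4.84 in the controls (log2 difference -0.41, SE 0.12, unadjusted p = 0.0158, adjusted p = 0.728 in limma). The knockdown arrays also differed from each other more than the controls did. Over genes, log2 differences had an SD of 0.20 between the knockdowns and of 0.10 between the controls. Of the 14 chondrocyte markers, Sox9 read 7.504 and 7.488 in the knockdowns against 7.52 and 7.47 in the controls, and Col2a1 8.23 and 9.17 against 9.01 and 9.08. These are among the 9 that overlapped the controls. Of the rest, 4 lay below both controls and 1 above, beside 17.1% below and 21.2% above over all genes.

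None of the 6 genes passed the test over all genes, and neither did any other gene. At an adjusted p of 0.05 in limma 0 of 17097 genes were called (0%), with 1141 (6.67%) at an unadjusted p of 0.05. Over all probe sets 1 was called (0.00222%), none of it among the 11. Smpd3, Phospho1 and Slc20a1, 3 of the 6, had an unadjusted p under 0.05, which depended on the setting. With all 4 arrays kept, it stayed under 0.05 in 3 of 7 alternatives for Smpd3 (p up to 0.150 in limma), 4 of 6 for Phospho1 (up to 0.0711) and 6 of 7 for Slc20a1 (up to 0.163). Without either control array it was above 0.05 for all 3. Slc20a1 alone had both knockdown arrays above both controls, as did 21.2% of all genes. Smpd3 and Phospho1 had both below, as did 17.1%, and Ank, Phex and Slc20a2 overlapped. The median log2 difference of the 6 was -0.04, with -0.07 in knockdown 1 and -0.10 in knockdown 2, beside 0.0067, -0.0031 and 0.01 over all genes. By probe set 1 of 11 lay above and 5 lay below both controls, against 18.6% and 19.9% of all probe sets. The 3 Smpd3 probe sets among these 5 read 1 gene and are not separate evidence. The genes were listed with earlier results of these arrays known, so these counts describe the genes and support nothing further.

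**Figure D1:**
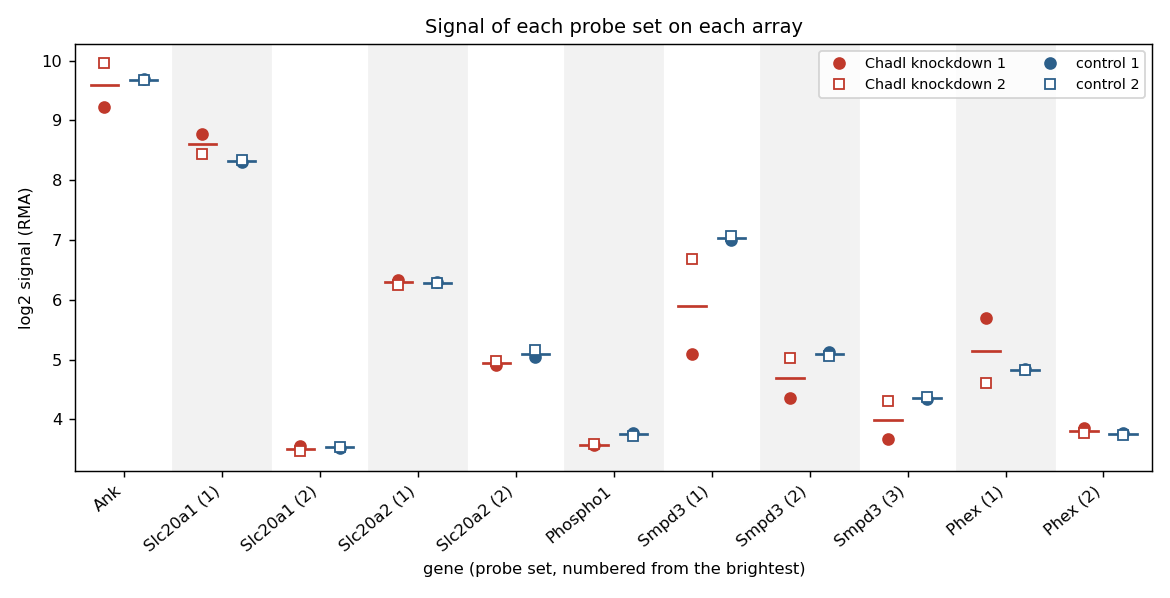
Log2 signal (RMA) of the 11 probe sets on each array, with knockdown arrays in red to the left of controls in blue, filled circles for replicate 1, open squares for replicate 2 and bars for group means. Knockdown 1 and knockdown 2 stand 1.59 apart for the brightest Smpd3 probe set, 1.08 for the brighter Phex one and 0.74 for Ank. The widest gap between controls is 0.11, for the second Slc20a2 probe set, whose knockdowns stand 0.06 apart. For this probe set and for Phospho1 the controls stand farther apart than the knockdowns.

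Smpd3, which supplies phosphocholine and ceramide by splitting sphingomyelin, had the widest difference of the 6. Its brightest probe set read 5.10 and 6.69 in knockdown 1 and knockdown 2, against 7.004 and 7.074 in the controls. Both knockdown arrays lay below both controls, and knockdown 1 lay far below knockdown 2. The signal was 3.84-fold below the control mean in knockdown 1 and 1.28-fold below it in knockdown 2. Ranked by difference from the control mean, Smpd3 was the 6th lowest of 17097 genes in knockdown 1 and the 79th lowest in knockdown 2. The mean log2 difference was -1.15 (SE 0.45, 95% confidence interval -2.23 to -0.07, unadjusted p = 0.0408, adjusted p = 0.743 in limma). In the fits without knockdown 2 it was -1.94 (adjusted p = 7.93e-11) and without knockdown 1 it was -0.35 (adjusted p = 0.00729). These fits assume that the single knockdown array left varies as the control arrays do.

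Both dimmer Smpd3 probe sets differed the same way by less. The second read 4.36 and 5.03 in the knockdowns against 5.13 and 5.05 in the controls (log2 difference -0.39, SE 0.19). The third read 3.67 and 4.30 against 4.35 and 4.38 (-0.37, SE 0.18). In knockdown 1 these 2 were 1.66-fold and 1.61-fold below the control mean, and in knockdown 2 each was 1.04-fold below. The fold of Smpd3 thus depended on the probe set, and its direction did not. Averaged over its 3 probe sets the gene differed by -0.64.

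Most of the osteoblast markers measured were also lower in both knockdown arrays. Of 6 measured, 5 (Sp7, Bglap, Ibsp, Col1a1 and Dmp1) lay below both controls on each knockdown array, and Phex did not. Over all genes 17.1% lay below both controls and 21.2% above, and the marker counts here are to be read beside these shares. Some of the differences were slight, as for Bglap in knockdown 2, at 6.78 against 6.80 and 6.82, and Dmp1 was dim. The mean log2 signal of this list was 6.47 and 7.07 in knockdown 1 and knockdown 2, against 7.40 and 7.38 in the controls. Its median log2 difference was -0.97 in knockdown 1 and -0.19 in knockdown 2. Ibsp differed most, at 7.02 and 9.01 against 10.15 and 10.15, the lowest of all genes by difference on both arrays. The order of the 2 arrays was not shared by all, since Col1a1 differed by -0.12 and -0.15 and Phex was highest in knockdown 1. Of the 14 chondrocyte markers 4 lay below (Sox5, Hapln1, Col11a2 and Chad) and 1 above (Col11a1). The mean of the 14 was 5.27 and 5.53 in the knockdowns against 5.53 and 5.55 in the controls. Of the 5 hypertrophic chondrocyte markers 2 lay below both controls and 3 overlapped. Their mean was 5.08 and 5.70 in the knockdowns against 5.83 and 5.89 in the controls. The median log2 difference of this list was only -0.07 in knockdown 1 and -0.11 in knockdown 2. Most of the difference in the mean came from the 2 that lay below. The 2 were the channel gene Panx3, at 6.43 and 8.89 against 9.35 and 9.33, and the parathyroid hormone receptor gene Pth1r, at 7.70 and 8.82 against 9.05 and 9.09. Panx3 was the 2nd lowest gene in knockdown 1 and the 28th lowest in knockdown 2. Col10a1, the collagen that defines these cells, was dim and overlapped, at 3.52 and 3.65 against 3.58 and 3.59. Ihh and Mmp13 overlapped too, and Mmp13, also dim, was higher in knockdown 1, at 3.61 and 3.20 against 3.23 and 3.22. In cultured cells, fewer cells of a type and less RNA per cell cannot be told apart, and the part of any of these marker differences in that of Smpd3 was not tested.

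Phospho1, the phosphatase that uses the phosphocholine, was dim. It read 3.57 and 3.59 in the knockdowns against 3.77 and 3.73 in the controls, with both knockdown arrays below both controls and close to each other. The difference was 1.13-fold in the mean (log2 difference -0.17, SE 0.07, 95% confidence interval -0.34 to -0.0031, unadjusted p = 0.0470, adjusted p = 0.744 in limma). It is the member with the smallest gap between the knockdown arrays, 0.02. Its signals lay at the 19.4th percentile of all genes. Whether Phospho1 transcript was present is not settled by these values.

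Ank, the pyrophosphate exporter, parted between the knockdown arrays. It read 9.22 in knockdown 1 and 9.95 in knockdown 2, against 9.68 and 9.68 in the controls. The controls differed by 0.0042, and the knockdown arrays stood on either side of them, 1.38-fold lower and 1.21-fold higher. Ank was the 163rd lowest gene in knockdown 1 and the 382nd highest in knockdown 2. The mean log2 difference was -0.10 (SE 0.21, 95% confidence interval -0.60 to 0.41, adjusted p = 0.943 in limma), an average of 2 opposite readings. With 1 knockdown array at a time it was -0.47 (without knockdown 2, adjusted p = 4.08e-08) and 0.27 (without knockdown 1, adjusted p = 6.27e-05). The error in these 2 fits came only from the spread between controls, mostly as pooled over all genes and little from Ank's own gap. For Ank the 2 fits gave opposite directions.

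Phex, the endopeptidase that keeps Fgf23 low, also parted, the other way round. Its brighter probe set read 5.69 in knockdown 1 and 4.61 in knockdown 2, against 4.84 and 4.82 in the controls. Knockdown 1 was 1.81-fold above the control mean and knockdown 2 was 1.17-fold below it, the 57th highest and the 403rd lowest of all genes. The mean log2 difference was 0.32 (SE 0.31, 95% confidence interval -0.43 to 1.06, adjusted p = 0.859 in limma). It was 0.86 without knockdown 2 (adjusted p = 8.62e-06) and -0.22 without knockdown 1 (adjusted p = 0.277). The second Phex probe set was dim and read 3.85 and 3.77 in the knockdowns against 3.77 and 3.74 in the controls, a difference of 0.06 (SE 0.08).

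**Figure D2:**
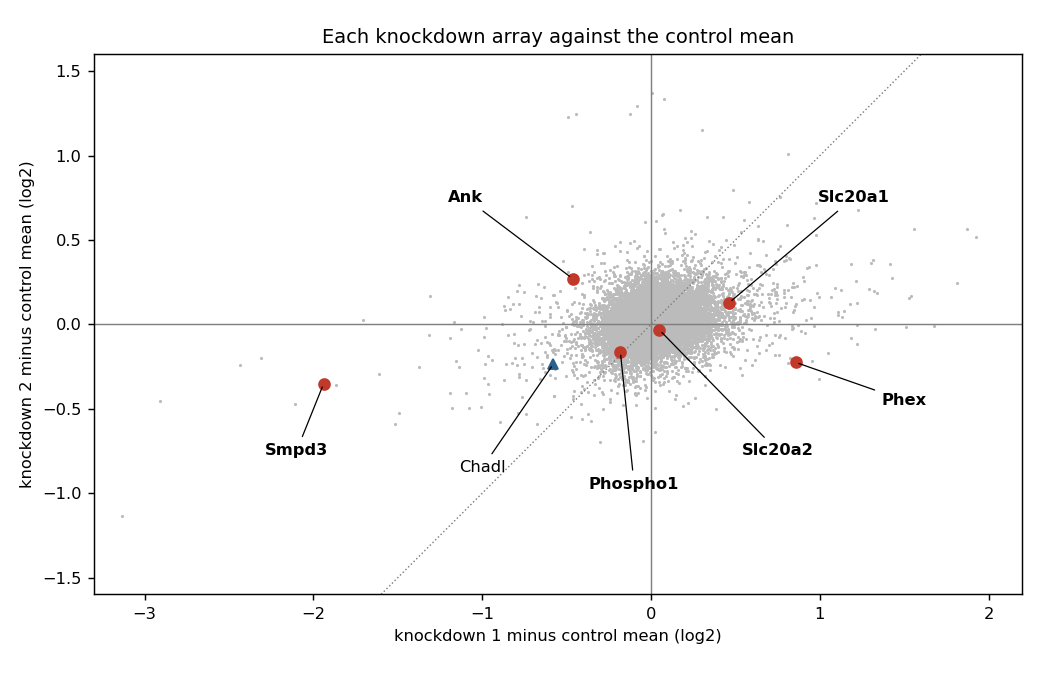
Log2 difference from the control mean in knockdown 1 (horizontal) and knockdown 2 (vertical) for all genes in grey, the 6 members in red and Chadl as a blue triangle, with a dotted line where both arrays would agree. Smpd3 lies far left at -1.94 and -0.35, Ank (-0.47 and 0.27) and Phex (0.86 and -0.22) lie in opposite corners, and Slc20a1 (0.46 and 0.13) is the member above 0 in both.

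Slc20a1, the phosphate importer Pit1, was higher in both knockdown arrays. Its bright probe set read 8.78 and 8.45 in knockdown 1 and knockdown 2, against 8.30 and 8.33 in the controls, so the groups did not overlap. The signal was 1.38-fold and 1.09-fold above the control mean, and the gene was the 327th highest in knockdown 1 and the 2557th highest in knockdown 2. The mean log2 difference was 0.29 (SE 0.11, 95% confidence interval 0.03 to 0.55, unadjusted p = 0.0319, adjusted p = 0.743 in limma). Without knockdown 2 it was 0.46 (adjusted p = 1.68e-06), and without knockdown 1 it was 0.13 (unadjusted p = 0.0122, adjusted p = 0.158). The second probe set of Slc20a1 was dim, reading 3.56 and 3.47 in the knockdowns against 3.53 and 3.53 in the controls, with overlapping groups.

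Slc20a2, the related importer Pit2, was level on its brighter probe set. It read 6.33 and 6.25 in the knockdowns against 6.29 and 6.28 in the controls (log2 difference 0.0083, SE 0.08, 95% confidence interval -0.18 to 0.20, adjusted p = 0.989 in limma). A second probe set read 4.92 and 4.97 against 5.04 and 5.15, below both controls in both arrays, with a difference of -0.15 (SE 0.09, adjusted p = 0.742 over all probe sets in limma). A further probe set, left out because its annotation also names Smim19, read 7.26 and 7.27 against 7.23 and 7.27. The direction for Slc20a2 therefore depended on the probe set read, and each difference was small.

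**Figure D3:**
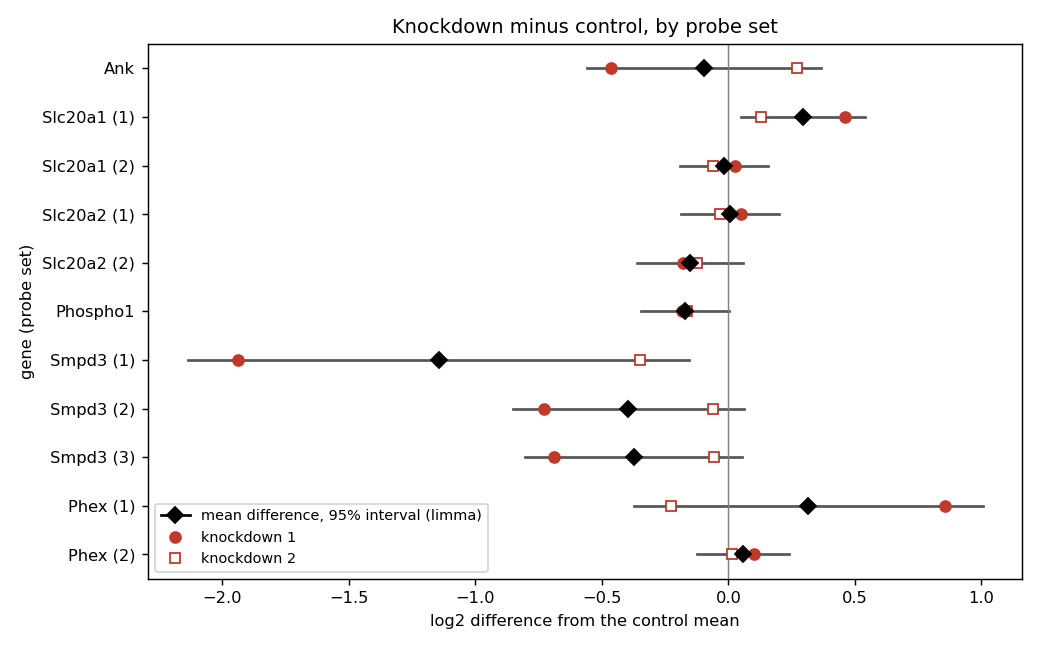
Knockdown minus control for each of the 11 probe sets in log2 units. Black diamonds are means with 95% confidence intervals from limma fitted over all probe sets, filled red circles knockdown 1 and open red squares knockdown 2, each against the control mean. The intervals of the brightest Smpd3 probe set (-2.14 to -0.15) and of the bright Slc20a1 probe set (0.05 to 0.54) do not cross 0, and no probe set passed after adjustment.

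Leaving out 1 knockdown array changed which members were called. Without knockdown 2, limma called 2584 genes (15.1%), among them Ank, Phex, Slc20a1 and Smpd3, 4 of the 6. Without knockdown 1 it called 561 genes (3.28%), among them Ank and Smpd3, 2 of the 6. Smpd3 was the member called in the same direction in both fits. The 2 fits share their control arrays, and the members were listed with these arrays' results known.

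The genes with the array pattern most like a member were found by the Euclidean distance of the 4 log2 signals after subtracting each gene's control mean, among 8549 genes at or above the median signal. This was done for the members more than 0.5 from the control mean in at least 1 knockdown array, Smpd3 and Phex. Nearest to Smpd3 were the sodium-calcium exchanger gene Slc8a3 (distance 0.10, with -1.86 and -0.36 in knockdown 1 and knockdown 2), the adhesion molecule gene Cadm1 (0.22, with -2.11 and -0.47) and the adhesion receptor gene Adgrd1 (0.33, with -1.61 and -0.29). A second, dim Slc8a3 probe set differed by -0.04 with overlapping groups, while all 4 Cadm1 probe sets lay below both controls. Nearest to Phex were the corneodesmosin gene Cdsn (distance 0.08, with 0.81 and -0.23), the ceruloplasmin gene Cp (0.11, with 0.76 and -0.18) and the glucuronosyltransferase gene Ugt1a6a (0.13, with 0.95 and -0.22). A second Ugt1a6a probe set read 6.11 and 4.83 in the knockdowns against 4.86 and 4.80 in the controls, so knockdown 2 lay between the controls. A second Cp probe set was dim, at 3.88 and 3.68 against 3.64 and 3.76. Likeness over 4 arrays is a description only.

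Neighbouring genes of the pathway were described in 7 lists, of which 93 genes were measured and 0 passed over all genes in limma. Sphingomyelin and ceramide turnover, the reactions around Smpd3, had 22 members, 7 above and 5 below both controls in both knockdown arrays, with a median log2 difference of 0.03. Sgms2, a sphingomyelin synthase of the plasma membrane, had the smallest p in this list. It read 4.30 and 4.81 in knockdown 1 and knockdown 2, against 5.32 and 5.28 in the controls (log2 difference -0.75, SE 0.16, unadjusted p = 0.00316, adjusted p = 0.615 in limma). Its dim second probe set differed by -0.09. The brightest member, the ceramide desaturase gene Degs1, differed by -0.04, and its other probe set had the opposite sign. A list of genes around phosphocholine, 12 in all, had 4 above, 2 below and a median of 0.03. It mixes genes that supply phosphocholine with genes that act after it or on ethanolamine, so these counts do not describe supply alone. Of the genes acting after it, the cholinephosphotransferase gene Chpt1 read 8.06 and 8.11 against 8.24 and 8.26 (-0.17, SE 0.06). The ethanolamine kinase gene Etnk1 read 9.82 and 9.43 against 9.57 and 9.53, though 2 of 5 Etnk1 probe sets differed downward.

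Pyrophosphate and nucleotide enzymes other than Enpp1, listed together with the transporters Abcc1, Abcc6 and Slc29a1, were 15 measured of 17. They had 3 above, 5 below and a median of 0.0013. Nt5e, which turns extracellular AMP into adenosine and phosphate downstream of Enpp1, had the smallest p. It read 6.22 and 6.30 in the knockdowns against 6.96 and 6.82 in the controls, with the knockdown arrays close together (log2 difference -0.63, SE 0.09, unadjusted p = 0.000232, adjusted p = 0.451 in limma). Of its 3 probe sets 1 had the opposite sign. Adk, the adenosine kinase gene and brightest of the list, read 9.84 and 10.11 against 10.22 and 10.18 (-0.22, SE 0.08), though 1 of 4 Adk probe sets differed upward.

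Phosphate carriers outside the Slc20 family, listed together with the scaffold gene Slc9a3r1, were 9 measured of 10. They had 2 above and 2 below with a median of 0.01. Slc9a3r1, a scaffold that holds the renal phosphate cotransporter at the membrane, read 7.04 and 6.70 in the knockdowns against 6.41 and 6.37 in the controls (log2 difference 0.48, SE 0.12, unadjusted p = 0.00595, adjusted p = 0.678 in limma), and 1 of its 3 probe sets had the opposite sign. The mitochondrial phosphate carrier gene Slc25a3 differed by -0.04. Phosphate sensing genes, 14 measured, had 1 above and 4 below with a median of -0.09. Their smallest p was that of Dmp1, a matrix phosphoprotein of osteocytes, which was dim, at the 29.4th percentile of all genes. It read 3.16 and 4.04 against 4.36 and 4.23 (-0.70, SE 0.26, unadjusted p = 0.0335, adjusted p = 0.743 in limma). The brightest, the kinase gene Sgk1, differed by 0.08. Fgf23 itself read 3.85 and 3.93 against 4.02 and 4.001, a dim signal picked here after its value was seen.

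The 11 genes that load zinc onto alkaline phosphatase or build its lipid anchor had 1 above and 2 below with a median of -0.02. Piga, needed for the first step of the anchor, was dim, at the 21.7th percentile of all genes. It read 3.83 and 3.91 in the knockdowns against 3.65 and 3.55 in the controls (log2 difference 0.27, SE 0.08, adjusted p = 0.728 in limma). The zinc transporter gene Slc30a5 differed by -0.11. Of the matrix vesicle and mineral inhibitor genes, 10 measured of 12, 4 lay above and 2 below with a median of 0.03. Mgp, the matrix Gla protein that inhibits calcification, read 10.03 and 10.29 against 10.43 and 10.42 (-0.26, SE 0.08, unadjusted p = 0.0154, adjusted p = 0.728 in limma). The annexin gene Anxa2, whose protein is found on matrix vesicles, differed by 0.03. Each list is to be read beside the 21.2% of genes above and 17.1% below both controls.

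**Figure D4:**
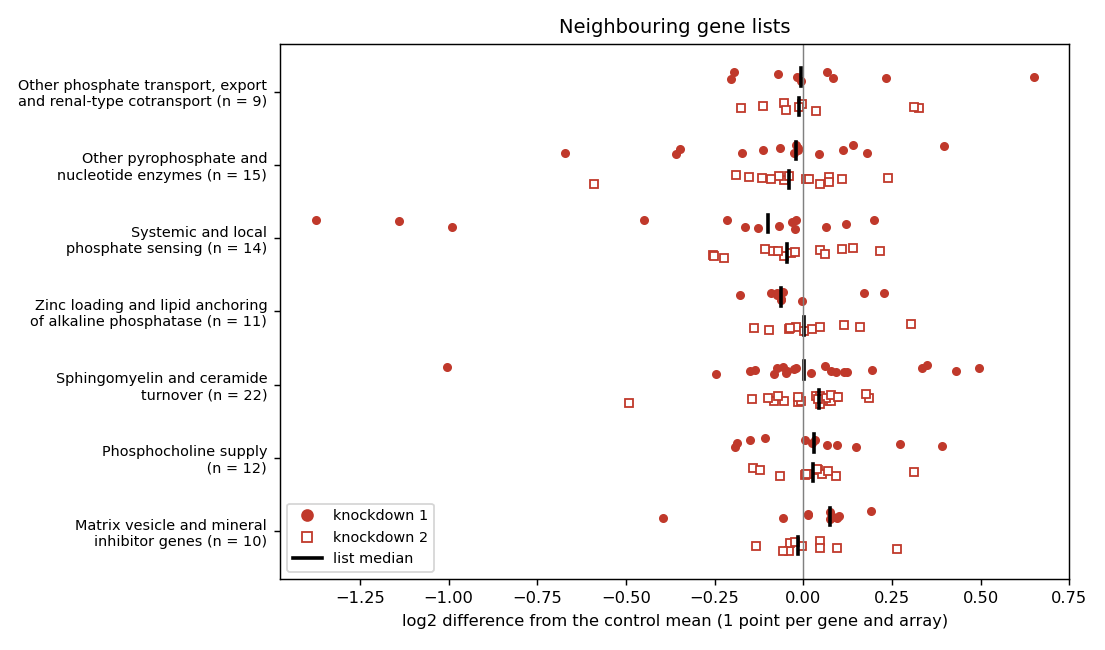
Log2 difference from the control mean for each measured gene of the 7 neighbouring lists, with knockdown 1 as filled circles above and knockdown 2 as open squares below, and list medians as black bars (vertical scatter within a row is for display only). List medians lie between -0.10 and 0.08, while single genes in knockdown 1 reach -1.37 in the phosphate sensing list, where Dmp1 is at -1.14, and -1.01 for Sgms2.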

How the data were processed

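The data were 4 arrays (Affymetrix, labelled from the polyadenylated end by in vitro transcription, per the labels' protocols). The authors deposited 1 log2 signal for each probe set and array. The submitters' processing notes name RMA, which makes the arrays' distributions alike and compresses the change of dim genes. Its software is not given in the sources used here, and the log base was read from the values, 2.17 to 12.72. Array controls (104) were left out. By the platform annotation, 28898 probe sets carried 1 symbol, 551 several and 15692 none, controls included. Each gene was read by its brightest probe set.

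For knockdown minus control, limma 3.58.1 was used under R 4.3.3 (linear models with moderated variances and a trend on signal, 2 residual and 4.45 prior degrees of freedom), fitted over all genes and again over all probe sets, two-sided, with Benjamini-Hochberg adjustment and a threshold of 0.05. A gene's p comes from the first fit, that of a further probe set from the second. The step was checked on simulated data in which all 4 arrays had the same spread and both knockdown arrays shifted alike. The real knockdown arrays differed more from each other than the controls did, which the check does not cover. Members and lists were chosen with earlier results of these data known. Named are all members, Chadl, the member of each list with the smallest p and the brightest, and the genes nearest to members; others are marked as picked later or stand as markers. Alternatives were quantile normalization, median centring, leaving out genes below the 40th percentile, averaging probe sets, eBayes without trend or robust, the replicate number as a block, and each array left out. List genes without a probe set of that symbol alone were not analysed here. The number of arrays, 2 per group, limits precision.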

Additional observations from a re-analysis of the deposited data

How the results depend on the processing

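With all 4 arrays kept, the 6 members gave 41 values over 7 alternatives, of which 40 kept their direction and none passed. The exception was Slc20a2, at -0.072 with a gene's probe sets averaged, a setting that also took Smpd3 to -0.64 and Slc20a1 to 0.14. Phospho1 has no value with dim genes left out. No gene passed in these 7. The unadjusted p rose above 0.05 for Smpd3 with dim genes left out (0.0613), probe sets averaged (0.0643), no trend (0.0554) and robust eBayes (0.150), for Phospho1 with median centring (0.0502) and the block (0.0711), and for Slc20a1 with probe sets averaged (0.163). For Phospho1 it was 0.0509 in the fit over all probe sets. The number of probe sets called was 0 without the trend, 3 with robust eBayes and 2 with the replicate block. Leaving out arrays gave 0 to 2584 genes, 0 to 4 members and 0 to 5749 probe sets called, with 0 in each case when a control was left out, and 1669 probe sets without knockdown 1. Over the same 4 fits the log2 difference ran from -0.47 to 0.27 for Ank, from -0.22 to 0.86 for Phex, from -0.033 to 0.049 for Slc20a2, from -1.94 to -0.35 for Smpd3 and from 0.13 to 0.46 for Slc20a1. The values of opposite sign for Ank, Phex and Slc20a2 came from the fit without knockdown 1, in which knockdown 2 is the only knockdown array, and for Slc20a2 also from its dimmer probe set. The replicate number as a block left 0 genes and 0 members called. Same-numbered arrays did not deviate together (correlation over genes -0.0041). The labels tie the numbers to nothing, so whether same-numbered cultures shared any step is not known. Dim probe sets limit what can be seen of Phospho1 and of the second probe sets of Slc20a1 and Phex.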
